A study of Homo sapiens with 14 samples.

Results

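The HOX genes of clusters HOXA, HOXB, HOXC and HOXD were taken from a table of RNA polymerase II signal at gene starts in HCT116 cells, a human colorectal carcinoma line. Members were all protein-coding rows, by accession type, whose symbol is HOXA, HOXB, HOXC or HOXD followed by a number. This gave 38 of the 28159 windows in the table, among 18485 protein-coding windows, with 11 members in HOXA, 10 in HOXB, 8 in HOXC and 9 in HOXD. HOXC4 and HOXC6 had the same window, so medians over groups of members use 37 distinct windows. HOXC5, whose row is typed as noncoding and has that same window too, is not a member.

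The signal came from ChIP-seq, in which chromatin bound by a protein is pulled down with an antibody and sequenced. The antibody recognises polymerase II with Ser5 phosphate on its C-terminal tail, the form enriched at promoters and in early elongation. Wild-type HCT116 cells were electroporated without or with 10 µM of a bivalent stapled peptide, and the peptide cells had 200 nM more added to the medium. They were then held for 3 h in 0.1% DMSO, the solvent control, or in 10 µM Nutlin3a, which frees the transcription factor p53 from its inhibitor MDM2. The series title gives the aim as blocking p53 from binding Mediator, the coactivator complex that p53 and other factors use to reach the polymerase. There were 2 ChIP libraries of DMSO and 2 of Nutlin3a without peptide (replicates 1 and 2), 1 of DMSO with peptide and 1 of Nutlin3a with peptide (both replicate 2), and 8 inputs, sheared chromatin without immunoprecipitation, 2 for each of the 4 conditions. All groups share the electroporation step and come from 1 cell line.

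HOX genes encode homeodomain transcription factors that give cells their position along the body axis. Within a cluster the genes lie in the order in which they act, from anterior (low paralog numbers) to posterior (high numbers), and genes with the same number in different clusters are paralogs. The clusters are classic targets of Polycomb repression and of activation by Trithorax and MLL proteins, and the gut epithelium keeps a part of the HOX code of the region it came from. Here paralog groups 1 to 3 are called anterior (8 members), 4 to 8 central (14 members in 13 distinct windows) and 9 to 13 posterior (16 members).

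Each window was 1000 bp long, so that levels in CPM (counts scaled to a common library total) compare between members on the same length. The windows were placed by coordinate and not by the direction of the gene. Of windows with a RefSeq gene start inside, 83.1% on the plus strand and 88.2% on the minus strand had that start 300 bp above the lower edge, to within 2 bp. HOXA and HOXB, which run on the minus strand, were therefore mostly read over about 700 bp before the start and 300 bp after it. HOXC and HOXD, on the plus strand, were mostly read over about 300 bp before and 700 bp after. Coding windows with the start 300 bp above the lower edge, to within 2 bp, were compared by strand. Their median log2 ratio of ChIP to input was −0.31 on the plus strand (5449 windows) and −0.24 on the minus strand (5596 windows). The part of this placement in any difference between clusters was not tested. The windows of HOXA3, HOXA10, HOXB3, HOXD3 and HOXD13 did not hold the outermost annotated start of their gene. In several members the window overlapped that of a noncoding gene. Among these were HOXA6 (HOXA-AS3), HOXA11 (HOXA11-AS), HOXA13 (HOTTIP), HOXB2 (HOXB-AS1), HOXC9 (HOXC-AS1), HOXC10 (HOXC-AS3), HOXC13 (HOXC13-AS) and HOXD1 (HAGLR and MIR7704). Reads there count for both genes, and no strand was stated, so the partners cannot be told apart.

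The promoters of 4 HOXA genes are printed because they span the range of levels and of CpG content within 1 cluster. RefSeq promoters on GRCh38.p14 with their start inside the window were matched for 19 of the 38 members, 9 of 11 in HOXA, 1 of 10 in HOXB (HOXB1), 1 of 8 in HOXC and 8 of 9 in HOXD. Each sequence is the 250 bases before the start, read in the direction of the gene, with CpG dinucleotides in capitals. The promoter of HOXA9 is at chr7:27165538-27165787 (20 CpGs), that of HOXA10 at chr7:27174321-27174570 (24 CpGs), that of HOXA13 at chr7:27200092-27200341 (40 CpGs) and that of HOXA3 at chr7:27119596-27119845 (0 CpGs), all on the minus strand. Those of HOXA10 and HOXA3 are from the inner starts that their windows cover.
HOXA9: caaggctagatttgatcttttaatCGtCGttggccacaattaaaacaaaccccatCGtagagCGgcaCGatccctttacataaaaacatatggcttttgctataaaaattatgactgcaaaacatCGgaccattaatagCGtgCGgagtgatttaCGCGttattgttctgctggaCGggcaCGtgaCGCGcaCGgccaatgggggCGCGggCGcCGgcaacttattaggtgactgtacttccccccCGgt
HOXA10: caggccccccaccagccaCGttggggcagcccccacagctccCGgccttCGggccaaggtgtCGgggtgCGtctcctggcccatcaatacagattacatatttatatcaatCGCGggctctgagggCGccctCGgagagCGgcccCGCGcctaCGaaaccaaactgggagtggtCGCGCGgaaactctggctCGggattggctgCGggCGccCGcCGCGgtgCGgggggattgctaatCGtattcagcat
HOXA13: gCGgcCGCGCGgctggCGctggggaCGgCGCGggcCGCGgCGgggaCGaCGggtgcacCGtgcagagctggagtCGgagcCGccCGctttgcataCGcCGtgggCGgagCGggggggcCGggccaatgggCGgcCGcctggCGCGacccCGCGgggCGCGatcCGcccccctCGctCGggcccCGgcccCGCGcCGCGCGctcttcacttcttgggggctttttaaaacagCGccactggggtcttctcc
HOXA3: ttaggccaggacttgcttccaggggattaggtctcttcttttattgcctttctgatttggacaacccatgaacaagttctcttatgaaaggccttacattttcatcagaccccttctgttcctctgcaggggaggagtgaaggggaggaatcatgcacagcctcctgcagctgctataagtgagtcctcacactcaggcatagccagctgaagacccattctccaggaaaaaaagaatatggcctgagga

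The 19 HOX promoters held a median of 21 CpGs, against 19 in 13276 coding promoters of the same length. HOXA13 had the most of the 19 and HOXA3 the fewest. Over coding promoters, those with 20 to 29 CpGs had a median log2 ratio of ChIP to input of 0.02 (3992 windows), and those with 0 to 9 CpGs had −1.07 (3471 windows). The 10 HOX promoters with 20 to 29 CpGs had a median of −0.69. HOXB9, HOXB7, HOXB4 and HOXB5, which have the highest levels or ratios of the members, are not among the 19, so these values describe the matched promoters and not the HOX genes as a whole. Across promoters the CpG count correlated with the log2 ratio at a Pearson r of 0.352 and a Spearman rho of 0.355 in the 13276 coding promoters, and at 0.149 and 0.207 in the 19 matched HOX promoters, which leave out all of HOXB but HOXB1. These points share libraries and base composition, and genes are not independent replicates. The letters CCAAT, on either strand and with overlapping matches allowed, were found in 15 of 19 HOX promoters and in 34.4% of coding promoters. TATAAA was found in 3 of 19 (HOXA9, HOXA10 and HOXD13) against 8.52%, and TGATTNAT in 2 of 19 (HOXA2 and HOXD11) against 1.62%. These matches describe the letters only.

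ChIP libraries held 1290223 to 2240951 counts in the windows and inputs 161719 to 359276, so that input levels of single windows carry wide counting error. A count of 0, taken as a limit of 3 counts, allows up to 8.35 to 18.6 CPM in an input, for counting error only. Both replicate 1 ChIP libraries lay above all 4 replicate 2 ChIP libraries at 14.1% of 25901 windows and below them at 14.4%, and both peptide libraries are replicate 2. The sources used here do not say whether replicates are separate cultures, so that a p-value reflects the spread among these libraries alone, which may be technical. Of 10 colon epithelial markers, 5 were above input (EPCAM, KRT8, KRT18, KRT19 and CLDN4) and LGR5 was below it, with summed levels of 1015 to 1361 CPM over the 6 ChIP libraries. The colon factors CDX1 (6.23 CPM) and CDX2 (30.0 CPM) and the brush-border gene VIL1 (7.80 CPM) were not above input. Summed levels of 5 blood markers were 20.6 to 55.8 CPM and of 6 mesenchymal markers 18.3 to 53.5 CPM. The 10 windows of genes silent in this tissue, such as albumin and insulin, summed to 31.6 to 60.5 CPM. Bulk counts cannot tell a change in the share of cells with polymerase at a window from a change in its amount per cell.

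The first comparison set ChIP against input, which asks at which HOX starts the polymerase was present above the chromatin background. In a fit to all 14 libraries, scaled to their total counts, edgeR's quasi-likelihood test put 5 HOX windows above input and 8 below it among the 33 HOX windows tested, at a Benjamini-Hochberg adjusted p under 0.05. Over all 21504 windows tested, 17.3% were above and 24.2% below, so the HOX shares are near the background. With TMM factors the shares over all windows were 23.3% above and 17.3% below, with 5 and 6 HOX windows. At an unadjusted p under 0.05 there were 5 HOX windows above and 12 below, against 20.4% and 31.1% of all windows. The windows above input were HOXB9, HOXB7, HOXB4, HOXB5 and HOXA9. Those below it included HOXB1, HOXA13, HOXA10, HOXC10, HOXD10, HOXA6 and HOXB13. HOXA3, HOXC12, HOXD1, HOXD3 and HOXD11 had too few counts to be tested. Because each library is scaled to its own total, the ratio ranks windows and is not an absolute enrichment.

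HOXB9, a posterior gene of the trunk, had the highest level of all members. Its window, chr17:48626059-48627058 on hg38, was at 142 and 146 CPM in DMSO replicates 1 and 2, 126 and 138 CPM in Nutlin3a, 143 CPM in DMSO with peptide and 132 CPM in Nutlin3a with peptide. Input ran from 41.8 to 98.9 CPM with a median of 76.5 CPM. All 6 ChIP libraries therefore lay above all 8 inputs, as they did for HOXB4 and for 6.48% of all windows. The fitted log2 ratio to input was 0.93 ± 0.22 (SE), 1.90-fold, with an adjusted p of 0.00185 from edgeR. Its mean level ranked at percentile 96.7 of coding windows.

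HOXB7, a central gene known for its overexpression in several carcinomas, came next. Its window, chr17:48610718-48611717, was at 116 and 159 CPM in DMSO, 99.2 and 123 CPM in Nutlin3a, 130 CPM in DMSO with peptide and 149 CPM in Nutlin3a with peptide. Input ran from 30.9 to 128 CPM, so that only 3 of the 6 ChIP libraries exceeded every input. Its log2 ratio was 0.89 ± 0.23 with an edgeR adjusted p of 0.00358, and its level ranked at percentile 96.1.

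HOXB4, a factor of blood stem cell self-renewal, was at 56.3 and 75.8 CPM in DMSO, 65.1 and 59.9 CPM in Nutlin3a, 105 CPM in DMSO with peptide and 77.6 CPM in Nutlin3a with peptide. Its inputs ran from 6.18 to 51.3 CPM, below every ChIP library. The log2 ratio was 1.16 ± 0.28, with an edgeR adjusted p of 0.00173.

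HOXB5, a gene with a role in the enteric neural crest, had the highest ratio to input of the 33 tested members, at a lower level. It was at 44.8 and 60.4 CPM in DMSO, 34.9 and 39.1 CPM in Nutlin3a, 50.7 CPM in DMSO with peptide and 45.1 CPM in Nutlin3a with peptide, against inputs of 0 to 45.1 CPM. The 8 inputs held 35 counts in all at this window. The log2 ratio was 1.57 ± 0.37, or 2.97-fold, with an edgeR adjusted p of 0.00145.

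HOXA9, a posterior gene that sustains blood progenitors and is a target of MLL fusions in leukaemia, was the 1 member above input outside HOXB. It was at 69.1 and 57.9 CPM in DMSO, 55.8 and 58.7 CPM in Nutlin3a, 83.3 CPM in DMSO with peptide and 72.3 CPM in Nutlin3a with peptide. Inputs ran from 9.79 to 101 CPM, and no ChIP library exceeded all of them. Its log2 ratio of 0.79 ± 0.29 had an edgeR adjusted p of 0.0283. Without the DMSO replicate 1 ChIP library that p was 0.0702, and without that of Nutlin3a replicate 2 it was 0.0572. In DMSO libraries alone the ratio turned to −0.25, and without replicate 2 to −0.51.

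The other 4 windows above input also fell short of the threshold when only the DMSO libraries or only the replicate 1 libraries were used, with 0 HOX windows called above input in either case. Fewer calls were made there over all windows too, with 4.81% above input in DMSO libraries alone (29 HOX windows tested) and 3.90% in replicate 1 alone (26 tested). At HOXB9 the log2 ratios there were 1.06 and 1.06, with edgeR adjusted p of 0.0742 and 0.215. At HOXB5 the ratio was 2.67 in DMSO libraries alone and 0.51 in replicate 1 alone.

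The lowest ratio among tested members was at HOXB1, a hindbrain gene at the anterior end of its cluster. HOXB1 was at 2.74 and 7.17 CPM in DMSO, 14.0 and 9.17 CPM in Nutlin3a, 6.76 CPM in DMSO with peptide and 5.35 CPM in Nutlin3a with peptide, against 18.3 to 55.8 CPM in the inputs. Every ChIP library was below every input. The log2 ratio was −2.25 ± 0.45, with an edgeR adjusted p of 0.000345.

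Members of HOXA were also below input. HOXA13, a gene of the distal limb and hindgut, had a log2 ratio of −1.40 ± 0.33 (edgeR adjusted p 0.00153), at 17.1 to 28.2 CPM against inputs with a median of 60.7 CPM. HOXA10, which acts in the uterus and lies next to HOXA9, had −1.05 ± 0.27 (edgeR adjusted p 0.00270). In the promoters printed above, where that of HOXA10 is from an inner start, both hold more CpGs than HOXA9, which was above input. HOXA6 had −1.24 ± 0.48 (edgeR adjusted p 0.0389).

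Among the posterior genes of the other clusters, HOXC10 was below input at −1.48 ± 0.39 (edgeR adjusted p 0.00352) and HOXD10 at −1.80 ± 0.58 (edgeR adjusted p 0.0145). Both belong to the paralog group 10 that patterns lumbar segments and the hindlimb, as does HOXA10, so that all 3 members of group 10 were below input. HOXB13, a gene of the prostate and distal gut, had −0.77 ± 0.31 (edgeR adjusted p 0.0451). Its levels were 27.4 and 29.7 CPM in DMSO, 35.7 and 26.3 CPM in Nutlin3a, 22.0 CPM in DMSO with peptide and 37.9 CPM in Nutlin3a with peptide. The calls of HOXA6 and HOXB13 were lost with TMM factors (adjusted p 0.0796 and 0.140), with DESeq2 (0.0736 and 0.0886) and without the ChIP library of DMSO replicate 1 (0.0834 and 0.0915), Nutlin3a replicate 1 (0.0768 and 0.0564) or Nutlin3a replicate 2 (0.0607 and 0.0943). HOXB13 was also lost without DMSO replicate 2 (0.0774). Without replicate 2 altogether, 1 of 26 HOX windows tested was below input, against 2.67% of all windows. Without replicate 1 there were 16 of 38, against 34.3%.

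**Figure D1:**
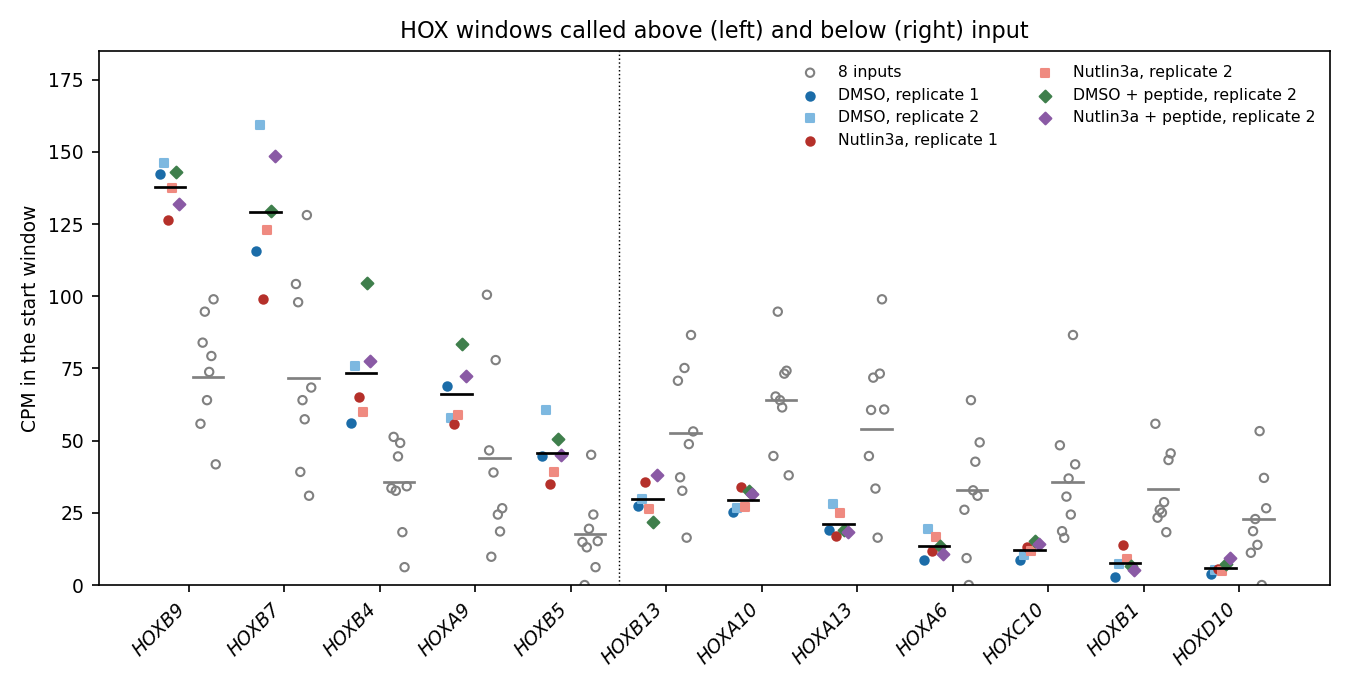
Levels in CPM (y axis, linear from 0) of 12 HOX windows that edgeR called above input (left of the dotted line) or below it (right). Filled symbols are the 6 ChIP libraries with a bar at their mean, and open circles are the 8 inputs with a bar at the pooled input. The 6 ChIP points of HOXB9 and HOXB4 lie above every input, while those of HOXA9 overlap inputs that reach 101 CPM.

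Several members with a fair level were not above input. HOXB3 had a mean of 61.0 CPM in ChIP against 46.9 CPM in pooled input, a log2 ratio of 0.38 ± 0.26 with an edgeR adjusted p of 0.236. HOXC9, the highest of its cluster, had 42.9 CPM against 47.9 CPM, a log2 ratio of −0.12 ± 0.26. Of the 38 members, 25 lay below the median level of coding windows and 5 above the upper quartile (HOXB9, HOXB7, HOXB4, HOXA9 and HOXB3). The median log2 ratio over the 38 members was −0.74, against −0.37 over coding windows. A ratio above 0 was found for 6 of 38 members (15.8%) and for 37.6% of coding windows.

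By cluster, HOXB stood highest. The median over members was taken in each ChIP library, and its mean over the 6 libraries was 0.20 ± 0.17 (SD) in HOXB, −0.82 ± 0.12 in HOXA, −1.11 ± 0.42 in HOXC and −1.04 ± 0.45 in HOXD. HOXB exceeded each other cluster in 6 of 6 libraries. All 6 ratios use the same pooled input, so they are not independent and the SD leaves out the error of the input. HOXA exceeded HOXC in 4 of 6 and HOXD in 4 of 6 by this ratio, and HOXC exceeded HOXD in 3 of 6. The ratios of HOXA, HOXC and HOXD thus overlapped within the spread between libraries. By median level the order was the same in all 6 libraries, with 41.1 CPM in HOXB, 20.8 CPM in HOXA, 11.4 CPM in HOXC and 6.60 CPM in HOXD. Inputs were also unequal, with medians of 35.8, 34.8, 22.0 and 13.8 CPM in that order of clusters. Members are not replicates, so no test was made between clusters.

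Summed over its windows, HOXB held 541 CPM, with 504 to 593 CPM over the libraries. HOXA held 262 CPM, HOXC 107 CPM and HOXD 78.0 CPM. Pooled input summed to 402 CPM in HOXB, 424 CPM in HOXA, 183 CPM in HOXC and 156 CPM in HOXD, so only the HOXB sum exceeded its input. In each cluster a pair of members held much of the ChIP sum, from which input was not subtracted. Each pair was picked as the highest by these same levels. HOXB9 and HOXB7 held 49.3% of the HOXB sum (42.1 to 51.6% over libraries) and HOXA9 and HOXA7 39.2% of HOXA (35.3 to 43.3%). HOXC9 and HOXC4 held 58.7% of HOXC, and HOXD8 and HOXD3 45.8% of HOXD. Of these pairs only HOXB9, HOXB7 and HOXA9 were called above input. HOXA7 was at 33.8 and 30.2 CPM in DMSO, 40.3 and 37.9 CPM in Nutlin3a and 36.6 and 40.6 CPM with peptide. The lowest members were HOXA3 at 3.72 CPM, HOXB1 at 7.53 CPM, HOXC8 at 4.98 CPM and HOXD4 at 5.32 CPM. HOXC8 had 0 counts in DMSO replicate 1, which allows up to 1.37 CPM, and 5.63 CPM in DMSO replicate 2.

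Set beside the 10 silent tissue windows, whose mean levels reached 9.90 CPM at most, 14 of 37 HOX windows were at or below that value, as were 33.4% of coding windows, so the HOX share is near that of coding genes. These were 8 of 9 in HOXD, 3 of 7 in HOXC, 2 of 11 in HOXA and 1 of 10 in HOXB. HOXD8, at 26.2 CPM, was the 1 window of HOXD above it. The silent windows had a median log2 ratio of −1.43.

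**Figure D2:**
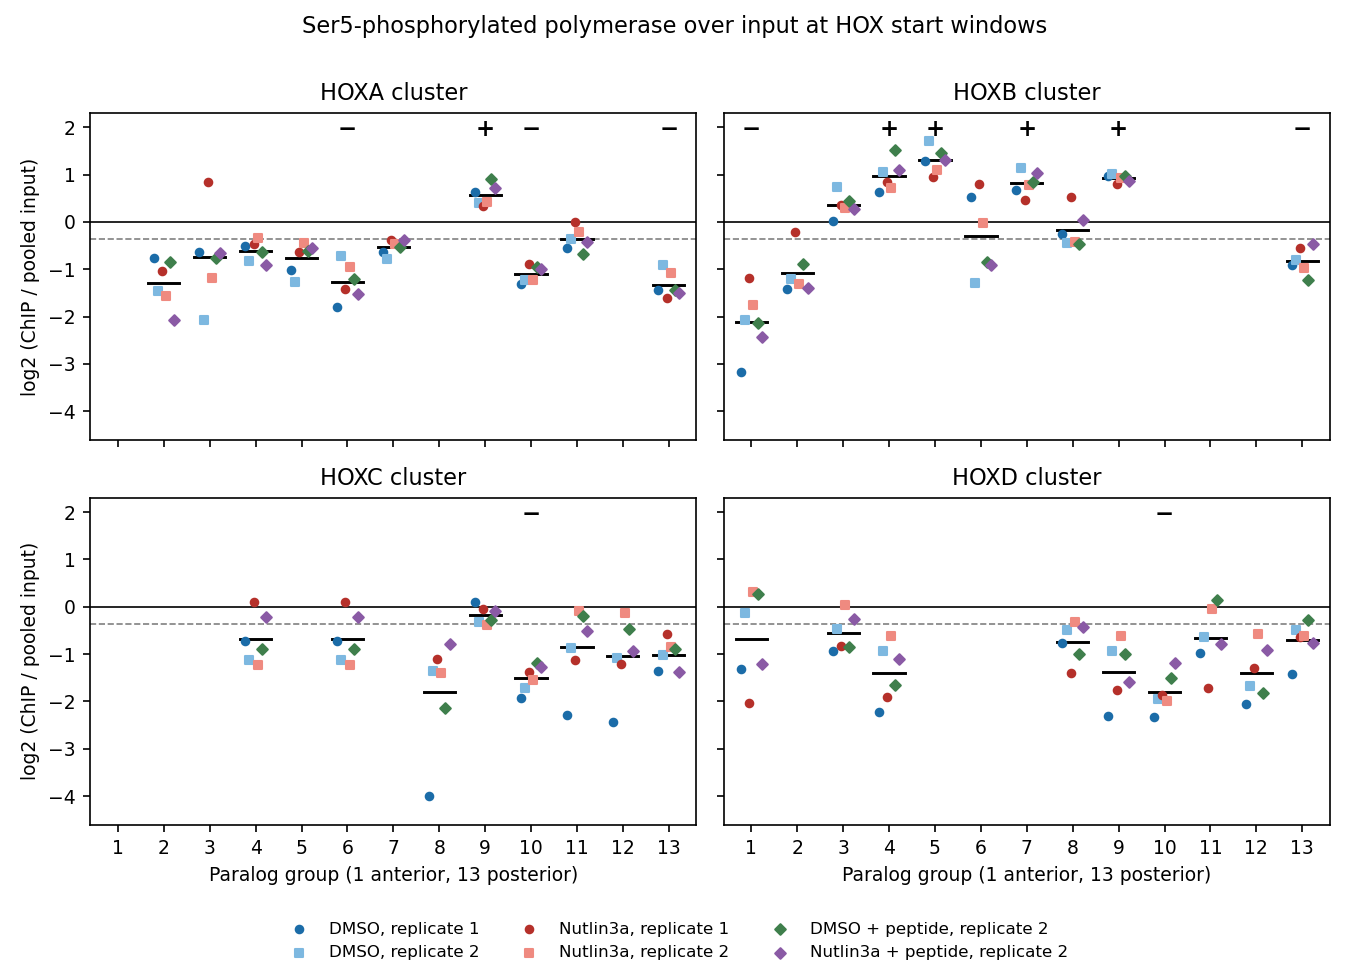
Log2 ratio of ChIP to pooled input (y axis, CPM with a prior count of 2) for HOX windows by paralog group (x axis), in 1 panel per cluster, with 1 symbol per ChIP library and a bar at the mean of the 6. The dashed line is the median of coding windows (−0.37), and + and − mark windows that edgeR called above and below input: ratios above 0 in all 6 libraries are seen in HOXB3, HOXB4, HOXB5, HOXB7, HOXB9 and HOXA9.

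By position, anterior and posterior members did not differ in ratio beyond the spread between libraries, which leaves out the error of the shared pooled input. The library medians averaged −1.07 ± 0.15 (SD, 6 libraries) in anterior, −0.55 ± 0.16 in central and −0.92 ± 0.26 in posterior members. Anterior exceeded posterior members in 2 of 6 libraries, with a mean difference of −0.15 ± 0.30. By level, anterior members were lower in 6 of 6 libraries, at a median of 9.52 CPM against 12.7 CPM, and their input median was lower too, at 19.7 against 26.8 CPM. Central members exceeded both other groups in 6 of 6 libraries. With groups 1 to 8 all counted as anterior, the median was −0.67 ± 0.18, above posterior in 5 of 6 libraries.

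Cluster and position were not separate in these data. The central genes of HOXB (5 windows) had a median of 0.85 ± 0.17 over the 6 libraries, against −0.66 ± 0.15 for those of HOXA (4 windows). Those of HOXC and HOXD, with 2 windows each, had −1.24 ± 0.70 and −1.07 ± 0.49. Each of these pairs includes the lowest member of its cluster, HOXC8 at 4.98 CPM and HOXD4 at 5.32 CPM. The anterior genes of HOXB stood at −1.07 ± 0.46, near those of HOXA at −1.10 ± 0.26 (3 windows each). Posterior genes stood higher in both clusters, at 0.05 ± 0.12 in HOXB (2 windows) and −0.70 ± 0.17 in HOXA (4 windows). Those of HOXB were HOXB9, called above input, and HOXB13, called below it. By paralog number, the HOXB genes called above input ran from HOXB4 to HOXB9 with gaps at HOXB6 and HOXB8. HOXB1 and HOXB13, at the ends of the cluster, were below input, and HOXB2 and HOXB3 were not called. By coordinate the window of HOXB3 lay between those of HOXB4 and HOXB5. In HOXD anterior members stood above posterior members, at −0.61 ± 0.59 (2 windows) against −1.21 ± 0.55 (5 windows). All of these HOXD windows had mean levels within the range of the silent tissue windows. HOXC has no anterior member. With HOXD left out of the posterior set only, that set had a median of −0.72 ± 0.34 over 11 windows, 5 of them in HOXC. The anterior value given above still includes HOXD, so the 2 sets cover unlike clusters.

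**Figure D3:**
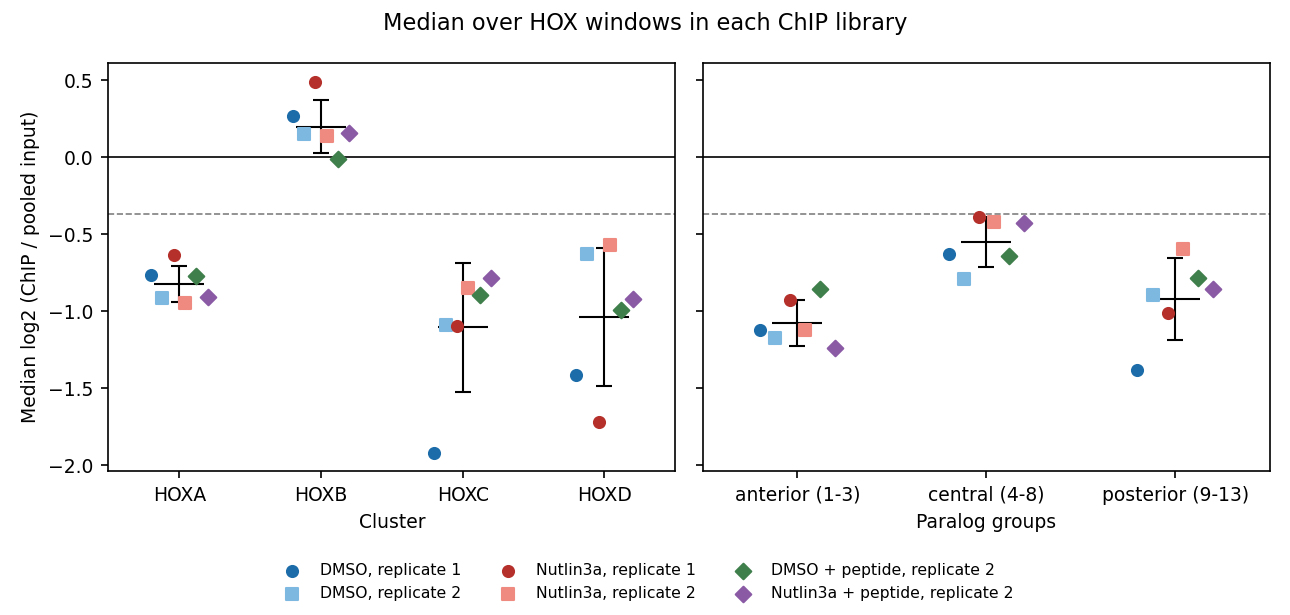
Median log2 ratio of ChIP to pooled input (y axis) over the members of each cluster (left) and of each set of paralog groups (right), with 1 point per ChIP library, a bar at the mean and whiskers of 1 SD over the 6 libraries. The HOXB points lie from −0.02 to 0.49, above every point of the other clusters, while anterior and posterior points overlap.

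Some members differed between replicate numbers. HOXB6 was at 43.9 CPM (DMSO) and 53.5 CPM (Nutlin3a) in replicate 1, and at 11.8, 30.0, 16.3 and 15.6 CPM in the replicate 2 libraries. Both replicate 1 libraries exceeded the 4 replicate 2 libraries at HOXA3, HOXB6 and HOXC9, that is 3 of 37 windows, against 14.1% of all windows tested. They lay below at 8 of 37 (among them HOXB7, HOXC11, HOXC12, HOXD1, HOXD4, HOXD9 and HOXD11), against 14.4%. Since the peptide libraries are all replicate 2, the fitted values of the members named in their comparisons are given below with the values within replicate 2.

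Nutlin3a against DMSO without peptide asked whether HOX starts gained or lost polymerase when p53 was stabilised. None of the 38 HOX windows passed in edgeR, 0 higher and 0 lower, against 0.00772% higher and 0% lower of 25901 windows. In simulated data, with changes only in windows above the median level, 6% with a 2-fold higher level passed this edgeR test. A miss here therefore does not show that the polymerase at HOX starts was unchanged. DESeq2 also called 0 HOX windows. At an unadjusted p under 0.05, edgeR had 0 higher and 1 lower, which was HOXB5, against 1.27% and 1.05% of all windows. The HOXB5 value was −0.56 ± 0.27 on the log2 scale (95% interval −1.13 to −0.0014, edgeR adjusted p 0.982), with −0.45 in replicate 1, −0.65 in replicate 2 and −0.16 between the peptide libraries. Its DMSO libraries without peptide (44.8 and 60.4 CPM) did not overlap those of Nutlin3a (34.9 and 39.1 CPM).

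The next lowest p below 0 were at HOXB7 (−0.37 ± 0.23, edgeR adjusted p 0.982) and HOXA9 (−0.22 ± 0.23). The lowest above 0 were at HOXB1 (1.16 ± 0.68), HOXD12 (1.07 ± 0.68) and HOXC12 (1.24 ± 0.83), all at adjusted p 0.982. HOXD12 went from 3.66 and 5.12 CPM in DMSO to 6.98 and 12.2 CPM in Nutlin3a. HOXC12 went from 1.37 and 5.12 CPM to 4.65 and 11.01 CPM. All 3 of these windows have mean levels within the range of the silent tissue windows. At the most abundant member, HOXB9, the value was −0.19 ± 0.22 with an interval of −0.65 to 0.26.

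Over the 37 distinct HOX windows the median fitted value was 0.22 and 26 were above 0, against a median of 0.04 and 54.0% above 0 over all windows tested. This lay in windows with few counts. For the 11 HOX windows with a mean of at least 50 counts the median was −0.16, with 4 above 0. Within replicates the HOX median was 0.27 in replicate 1, 0.04 in replicate 2 and −0.05 between the peptide libraries. For the 26 HOX windows under 50 counts it was 0.46, 0.14 and −0.07, beside 0.84, 0.04 and 0.05 at the 10 silent tissue windows. The median level at the silent windows was 6.20 CPM in Nutlin3a replicate 1 and 3.20 CPM in DMSO replicate 1. This background moved with the HOX value in replicate 1, and its part in it was not tested. In 9 of 37 windows both Nutlin3a libraries lay above both DMSO libraries, and in 2 of 37 below them, against 19.6% and 11.1% of all windows. The Nutlin3a to DMSO ratio had 1 sign in replicate 1, replicate 2 and the peptide pair at 13 of 37 windows, 8 higher and 5 lower, against 14.6% higher and 13.1% lower of all windows.

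By cluster the medians of the fitted values were 0.16 in HOXA, −0.05 in HOXB, 0.44 in HOXC and 0.25 in HOXD. With the scaling constants the authors deposited, the median of all windows moved from 0.04 to 0.53, and HOXA9 and HOXB7 moved with it to 0.26 and 0.11. Relative to the median of all windows, HOXA9 was at −0.26 with TMM factors and −0.27 with those constants, and HOXB7 at −0.41 and −0.42.

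**Figure D4:**
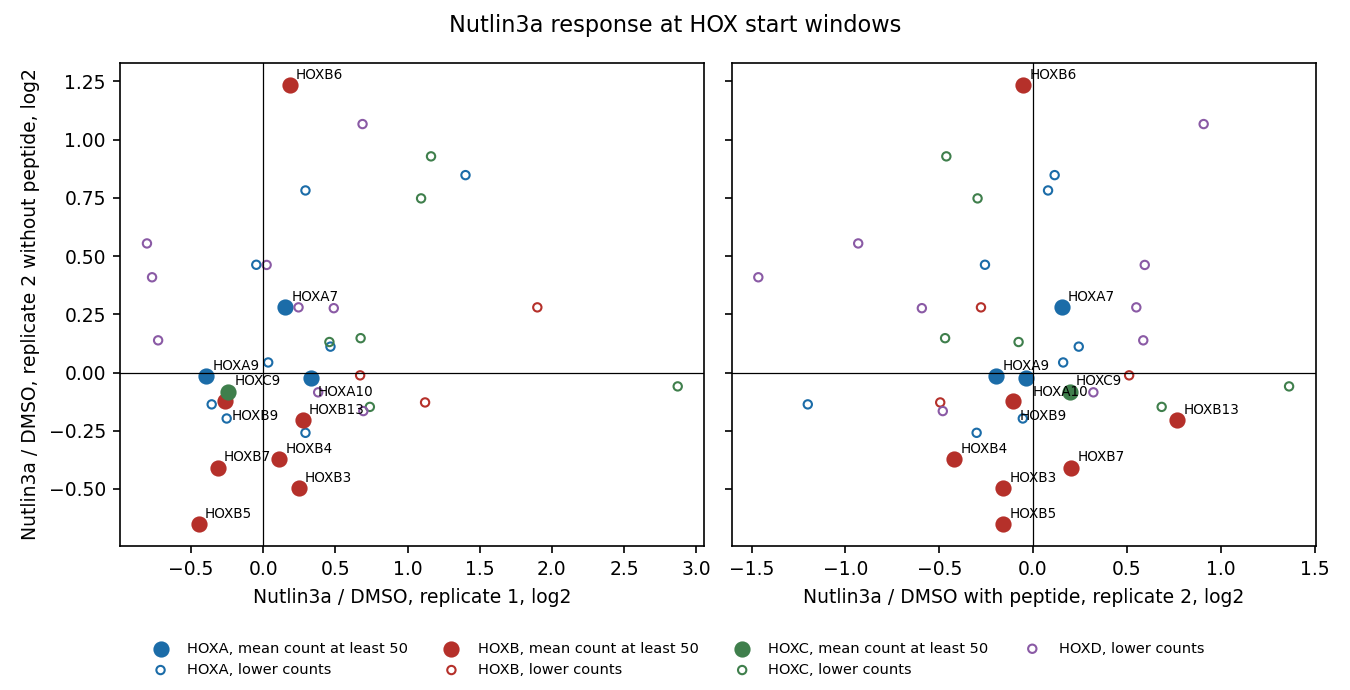
Log2 ratio of Nutlin3a to DMSO at each of the 37 distinct HOX windows (TMM-scaled CPM, prior count of 2), with replicate 2 without peptide on the y axis against replicate 1 (left) and the peptide libraries (right) on the x axes. Large filled points are the 11 windows with a mean of at least 50 counts: they lie between −0.45 and 0.33 in replicate 1, and HOXB6 alone of these exceeds 1 in replicate 2.

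An interaction term compared the response to Nutlin3a in peptide cells with that in cells without it, to see whether the peptide altered it. In edgeR 0 of 38 HOX windows passed, and 0% of all 25901 windows passed in either direction. At an unadjusted p under 0.05 there were 0 HOX windows, against 0.413% higher and 0.637% lower of all windows. DESeq2 called 0 as well. The 3 smallest p above 0 were at HOXB7 (0.57 ± 0.40, interval −0.26 to 1.41), HOXB13 (0.75 ± 0.55, interval −0.41 to 1.91) and HOXD8 (0.80 ± 0.65, interval −0.58 to 2.17). Within replicate 2 these were 0.61, 0.97 and 0.45. Those below 0 were at HOXD1 (−1.91 ± 1.41), HOXC12 (−1.77 ± 1.37) and HOXB1 (−1.48 ± 1.18), all with an adjusted p of 1.00, and within replicate 2 at −1.87, −1.39 and −0.56. The intervals are wide because each peptide group is 1 library, assumed to vary like the pairs. At HOXB9 the interval ran from −0.70 to 0.87, and the value within replicate 2 was 0.016. In the simulated data, 2% of windows with a 4-fold higher difference passed this test, so a miss here does not show that responses were alike. For HOXD1 the value turned to 0.22 without Nutlin3a replicate 2, the library that held its highest level.

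Peptide against none in DMSO also gave 0 HOX calls in edgeR and in DESeq2, with 0% of all windows called in edgeR. At an unadjusted p under 0.05 edgeR had 1 higher, HOXB4, and 0 lower, against 0.687% and 0.83% of all windows. HOXB4 was 0.62 ± 0.26 (interval 0.07 to 1.17, adjusted p 1.00), with 105 CPM in the peptide library against 56.3 and 75.8 CPM, and 0.44 within replicate 2. HOXC11 (1.37 ± 0.83) and HOXC12 (1.34 ± 0.96) followed, from low levels, and were lower within replicate 2, at 0.66 and 0.60. Below 0 stood HOXB6 (−0.84 ± 0.62), HOXB13 (−0.43 ± 0.40) and HOXD8 (−0.44 ± 0.47). HOXB13 and HOXD8 were at −0.43 and −0.53 within replicate 2. The HOXB6 value was 0.42 within replicate 2, the opposite direction, its level being 43.9 CPM in DMSO replicate 1 and 11.8 CPM in DMSO replicate 2.

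Peptide against none in Nutlin3a gave 0 HOX calls in both tools, with 0% of all windows called in edgeR. At an unadjusted p under 0.05 edgeR had 0 higher and 1 lower, HOXB6, against 0.564% and 1.88% of all windows. HOXB6 was at −1.38 ± 0.62 (adjusted p 0.999), and at −0.87 within replicate 2. HOXB7 (0.44 ± 0.28), HOXA9 (0.36 ± 0.27) and HOXB4 (0.34 ± 0.27) had the smallest p above 0, and HOXB1 (−1.07 ± 0.84) and HOXA4 (−0.51 ± 0.41) the next smallest below. Within replicate 2 the first 3 were at 0.30, 0.32 and 0.40, HOXB1 at −0.65 and HOXA4 at −0.54. HOXA9 was at 72.3 CPM with peptide against 55.8 and 58.7 CPM without, and at 83.3 CPM against 69.1 and 57.9 CPM in DMSO. With the authors' constants the median of all windows moved from −0.02 to −0.33 and HOXB4 with it to −0.01, which relative to that median is 0.33, against 0.36 with TMM factors. These comparisons and the Nutlin3a comparison share libraries, so their values are not independent of each other.

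Other genes of the HOX system were read from lists of cofactors, regulators and neighbours, with ChIP against input in edgeR. The counts of each list stand beside 17.3% above and 24.2% below of all windows tested, and no list was tested as a set. In the Polycomb list 6 of 27 were above input and 3 below. EZH2, the histone H3 lysine methyltransferase of Polycomb complex PRC2, was above by a log2 ratio of 1.58 ± 0.28, RING1 by 1.16, PHC2 by 1.17 and PHF1 by 0.82. PHC1 (−1.01), CBX7 (−1.01) and PCGF5 (−0.79) were below. In the Trithorax and MLL list 3 of 11 were above and 0 below: the methyltransferase DOT1L (1.18), and ASH2L (1.07) and DPY30 (0.78), core subunits of MLL complexes. Of the TALE cofactors, the homeodomain partners that bind DNA with HOX proteins, 0 of 8 were above and 2 below (PBX3 at −1.03 and PKNOX2 at −1.42). In the retinoic acid list ALDH1A3, a retinaldehyde dehydrogenase, was above at 3.31 ± 0.30, and the retinoic acid hydroxylases CYP26A1 (−1.38) and CYP26B1 (−1.62) were below, 1 and 2 of 9 tested. None of the 4 tested ParaHox and CDX windows was called.

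Of the noncoding genes inside the clusters, 0 of 22 were above input and 9 below, beside 17.3% and 24.2% of all windows, and several share a window with a HOX member. The lowest p were at HOTTIP (−1.68), MIR615 (−1.49), MIR196A2 (−1.96) and HOXC13-AS (−1.76). HOTTIP shares most of its window with HOXA13, which was below input as well. Of the genes next to the clusters, CBX5 beside HOXC (1.11 ± 0.24) and MTX2 beside HOXD (1.21 ± 0.31) were above input. TTLL6 (−1.54), PRAC2 (−1.53), PRAC1 (−1.31) and CALCOCO1 (−1.41) were below, which is 2 above and 4 below of 14, near the shares over all windows. The first 3 of these lie at the HOXB13 end of HOXB, where HOXB13 was below input as well. In Nutlin3a against DMSO 0 windows of these lists passed in edgeR. The smallest p of each list were at PHC2 (−0.47), ASH2L (−0.33), PKNOX1 (−0.29), RXRA (0.96), PDX1 (0.42), HOXA10-HOXA9 (0.67) and ATP5MC2 (−0.34), all at adjusted p 0.982.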

How the data were processed

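The HOX members and the gene lists were chosen with earlier results of these data known, so no list is independent support. The authors deposited raw read counts per window for ChIP and input libraries, and a scaled signal equal to the counts times 1 constant per ChIP library (0.595 to 1.82), per the file headers. The genome build is hg38 per the submitters' processing notes, and the sources used here do not name the aligner, counting tool, filters, window definition or origin of the constants. Groups came from sample titles and treatment labels.

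Counts were tested with edgeR 4.0.16 (R 4.3.3) by the quasi-likelihood test with legacy=TRUE, filterByExpr (minimum count 10) and Benjamini-Hochberg adjustment over all windows, with a threshold of 0.05. ChIP against input used 1 fit of 8 group means to 14 libraries scaled to library totals (21504 windows, residual df 6). For conditions the 6 ChIP libraries were fitted as 4 group means with TMM factors of 0.952 to 1.02 (25901 windows, residual df 2). Printed CPM are counts scaled to the library's window total, and log2 ratios per library used a prior count of 2 and the 8 inputs pooled. Ratios within a replicate used TMM-scaled CPM. Members may be named, and 1 that this rule names is not reported here. Full statistics go to members past a threshold, else to the 3 of smallest p above 0 and below 0. From other lists, up to 4 per direction are named or else the 1 of smallest p. The tests were tried on simulated data, with changed windows drawn only from those above the median level. In ChIP against input, 70% of 50 windows with a 2-fold higher level passed over 21504 windows. That run used TMM factors, unlike the reported fit. In Nutlin3a against DMSO over 25901 windows 6% passed, and 88% of 50 with a 4-fold higher level. The simulated variation between libraries was that of the ChIP fit (26.0%), below the 31.3% of the fit with inputs. These shares do not cover windows with few counts, such as many HOX members. Alternatives were DESeq2 1.42.0, other scalings and filters, the replicate block and leaving out libraries.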

Additional observations from a re-analysis of the deposited data

How the results depend on the processing

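Of 163 alternative values of the HOX counts and group medians, 150 stayed within 1.5 times the count or 1 SD over libraries. Many of these are HOX counts in the 4 condition comparisons, where few windows of any kind passed. They were 0 in the full fit and in every alternative run, so they could hardly move. The 13 values that moved were all counts against input or group medians. The count above input, 5 in the full fit, was 0 with DMSO libraries alone and ranged from 0 to 5 when libraries were left out (0 without replicate 2). The count below input, 8 in the full fit, was 0 with DMSO libraries alone, 1 with a mean count of at least 50 (11 HOX windows tested) and 1 to 16 when libraries were left out. Both alternatives use fewer libraries or windows. Over windows that overlap no other window, the medians of HOXA and HOXB were −0.68 and 0.47. The anterior median was −0.67 with paralog groups 1 to 8. When the libraries of 1 replicate were left out, the lowest and highest medians were −0.88 and −0.70 in HOXA, 0.11 and 0.38 in HOXB, −1.56 and −0.78 in HOXD and −1.19 and −0.78 in posterior members.

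Directions that turned, with causes not tested, were HOXA9 against input (−0.25 with DMSO libraries alone, −0.51 to 1.01 when libraries were left out), the HOXD1 difference between responses (−2.75 to 0.22 when libraries were left out, the highest without Nutlin3a replicate 2) and HOXB6 with peptide in DMSO (−1.50 to 0.45 when libraries were left out, the highest without DMSO replicate 1). The authors' constants move all windows by nearly the same amount within a comparison, by which the values of HOXA9 and HOXB7 in Nutlin3a against DMSO became 0.26 and 0.11 and that of HOXB4 with peptide in Nutlin3a −0.0081. Relative to the median of all windows these kept their direction.

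Same-numbered DMSO and Nutlin3a libraries deviated together over windows (Pearson 0.454, Spearman 0.357), but there are 2 pairs and the labels do not say that a number marks a shared batch. With the replicate block, 5 HOX windows were above input and 9 below (HOXB13 was lost at an adjusted p of 0.0509, and HOXD4 and HOXD8 were added), 0 were called in the condition comparisons, and HOXB6 with peptide in DMSO was at 0.045. Over all windows, Nutlin3a against DMSO had 2 higher without the block and 39 with it. Input depth limits the ratios of low members most, since a window such as HOXB5 had 35 input counts in all.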
